A study of Homo sapiens with 12 samples.

Results

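The checkpoint genes described here are the apex kinases ATM and ATR with the ATR partner ATRIP, the effector kinases CHEK1, CHEK2 and WEE1, and the mediators CLSPN, TOPBP1, TP53BP1 and MDC1. They were listed by their role in DNA damage signalling and matched to the count tables by Ensembl identifier, by a rule that uses no measured value, although earlier results of these data were known. They are 10 of the 17508 genes in the tables, all 10 had an exon and an intron entry, and all 10 passed every filter on low counts.

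RNA-seq was performed on TYK-nu, a human ovarian cancer cell line labelled as high-grade serous. The cells received 15 μM cisplatin, a platinum drug that cross-links DNA, or DMSO as the solvent control. RNA was collected after 24 or 72 h, with 3 replicate libraries in each of the 4 groups and 12 libraries in all. Poly(A) RNA was sequenced and fragments were counted separately over the exons and the introns of each gene. The 4 groups were therefore DMSO for 24 h, cisplatin for 24 h, DMSO for 72 h and cisplatin for 72 h, all of one cell line. The RNA libraries are described as triplicates. The study states in general that experiments were repeated independently, but not whether these triplicates came from separate passages or days, so p-values measure only the spread between these libraries, which may be technical.

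The checkpoint stops the cell cycle while DNA is damaged or replication is stalled. ATM responds to double-strand breaks, and ATR, held by ATRIP on single-stranded DNA coated with RPA, responds to stalled forks and is activated by TOPBP1. ATM signals mainly through CHK2 (CHEK2) and ATR through CHK1 (CHEK1), for which claspin (CLSPN) is the adaptor, while MDC1 and 53BP1 (TP53BP1) assemble on chromatin beside breaks and WEE1 holds CDK1 in its inactive, phosphorylated state. Platinum adducts block replication forks, which is why this pathway is of interest in cisplatin-treated cells.

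Exon and intron counts summed to between 18526830 and 68753262 per library. Introns held 6.26% to 7.17% of them. The libraries of cisplatin for 72 h were the deepest group, at 31908403 to 68753262 counts against 18526830 to 36911333 for cisplatin at 24 h. Of the 7 serous carcinoma markers in the tables, KRT18 had an exon CPM, the count scaled to library size, of 133 to 181, KRT8 of 11.02 to 34.5, WT1 of 1.59 to 4.19 and EPCAM of 0.117 to 1.68, whereas SOX17 was at 0 in every library and PAX8 and KRT7 did not exceed 0.0758 and 0.303 CPM, so that 3 of the 7 markers were at or near 0 and did not bear out the serous label. Among markers of other cells, PTPRC was at 0, COL1A1 and VWF did not exceed 0.174 and 1.202 CPM, and the endothelial adhesion gene PECAM1 was high, at 1350 to 2491 CPM. With time, 2 of the 4 tested serous markers were higher in each arm (KRT8 and EPCAM), KRT18 was lower in both arms and WT1 in DMSO. Of the 3 tested markers of other cells, PECAM1 was lower and CD3E was higher, at only 6 to 45 exon counts per library (0.205 to 0.905 CPM). The markers of other cells summed to 2388 to 2492 CPM at 24 h and to 1351 to 1525 CPM at 72 h. Nearly all of this sum was PECAM1, since no other of these markers exceeded 1.202 CPM. The part of these markers in the results was not tested.

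Promoter sequences from RefSeq (GRCh38.p14, 250 bases before to 50 after the transcription start) were matched by symbol for 9 of the 10 genes, at 13 annotated starts, and WEE1 had no entry. The promoters of the genes whose exon counts changed most, by the largest absolute log2 fold change in any called comparison, are printed 5′ to 3′ on the strand of the gene, with the first listed start for ATRIP and ATM. They are shown because, among the members with an entry, these had the largest differences with time. Capitals mark matches, on either strand, to E2F sites (TTTGGCGC, TTTCCCGC, TTTCGCGC or TTTGCCGC), to the cell cycle homology region CHR (TTTGAA or TTCGAA) and to the NF-Y box (CCAAT). No 2 of these motifs shared bases in the printed sequences.
CLSPN: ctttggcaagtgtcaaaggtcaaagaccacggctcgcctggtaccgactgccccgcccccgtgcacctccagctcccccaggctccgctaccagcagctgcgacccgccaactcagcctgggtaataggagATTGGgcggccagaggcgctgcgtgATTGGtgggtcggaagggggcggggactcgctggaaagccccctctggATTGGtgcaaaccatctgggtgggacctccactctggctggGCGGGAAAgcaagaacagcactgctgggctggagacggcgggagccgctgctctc
TOPBP1: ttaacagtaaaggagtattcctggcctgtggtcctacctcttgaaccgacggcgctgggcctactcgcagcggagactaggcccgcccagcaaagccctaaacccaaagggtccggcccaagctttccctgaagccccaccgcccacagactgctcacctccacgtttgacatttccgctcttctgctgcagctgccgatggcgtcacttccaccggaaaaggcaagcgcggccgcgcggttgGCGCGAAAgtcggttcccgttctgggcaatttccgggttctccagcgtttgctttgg
ATRIP: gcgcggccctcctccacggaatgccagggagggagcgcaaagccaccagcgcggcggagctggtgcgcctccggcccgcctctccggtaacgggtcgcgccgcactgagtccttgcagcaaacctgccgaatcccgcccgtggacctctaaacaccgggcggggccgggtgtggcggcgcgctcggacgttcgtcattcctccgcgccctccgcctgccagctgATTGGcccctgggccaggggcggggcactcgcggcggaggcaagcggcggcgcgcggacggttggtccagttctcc
ATM: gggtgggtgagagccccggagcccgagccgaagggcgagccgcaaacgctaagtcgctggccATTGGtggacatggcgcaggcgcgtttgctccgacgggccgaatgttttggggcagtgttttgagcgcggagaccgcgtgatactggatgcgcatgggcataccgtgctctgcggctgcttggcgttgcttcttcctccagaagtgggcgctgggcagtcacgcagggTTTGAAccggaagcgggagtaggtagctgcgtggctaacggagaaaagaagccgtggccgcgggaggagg
ATR: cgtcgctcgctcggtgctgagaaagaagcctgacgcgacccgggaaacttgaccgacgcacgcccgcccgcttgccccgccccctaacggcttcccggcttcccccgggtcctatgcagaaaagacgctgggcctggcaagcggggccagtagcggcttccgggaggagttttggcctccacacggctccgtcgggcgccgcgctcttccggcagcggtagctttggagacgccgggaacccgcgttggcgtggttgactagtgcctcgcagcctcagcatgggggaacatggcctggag
These windows lie at chr1:35769929-35770228 (minus strand), chr3:133661892-133662191 (minus strand), chr3:48446487-48446786 (plus strand), chr11:108222817-108223116 (plus strand) and chr3:142578684-142578983 (minus strand), in this order. The CLSPN promoter held 1 E2F match, GCGGGAAA, whose first base was at position -5 from the start, and 3 NF-Y matches, read as ATTGG on the printed strand. The TOPBP1 promoter held 1 E2F match, GCGCGAAA, at position -7. The ATRIP promoter held 1 NF-Y match, the ATM promoter held 1 CHR match at position -20 and 1 NF-Y match, and the ATR promoter held none of the motifs. Of all 35116 RefSeq promoters of this length, 3.31% held an E2F match, 16.4% a CHR match and 34.6% an NF-Y match.

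In GENCODE 44 on GRCh38, the apex kinase genes lie at chr11:108223044-108369102 (ATM, plus strand) and chr3:142449007-142578733 (ATR, minus strand), and ATRIP lies at chr3:48446710-48467645 (plus strand). The effector kinase genes lie at chr11:125625163-125676255 (CHEK1, plus strand), chr22:28687743-28742422 (CHEK2, minus strand) and chr11:9573670-9593457 (WEE1, plus strand). The mediator genes lie on the minus strand at chr1:35720218-35769978 (CLSPN), chr3:133598175-133662380 (TOPBP1), chr15:43403061-43510728 (TP53BP1) and chr6:30699807-30717447 (MDC1). Exons overlap other protein-coding genes for ATRIP (TREX1) and CHEK1 (STT3A) on the same strand, and for ATM (C11orf65), CHEK2 (HSCB), TP53BP1 (TUBGCP4) and MDC1 (TUBB) on the opposite strand. On the same strand, exons of ATR overlap a long noncoding RNA gene and those of WEE1 a small nucleolar RNA gene. CHEK1 overlaps the small nuclear RNA gene RNU2-35P outside its exons. Counts of these members are therefore uncertain where the counting could split or merge reads.

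The members differed widely in level. Exon CPM divided by the length of all annotated exons in kilobases gives an approximate level per length, since the length over which the authors counted is not stated. On this scale TOPBP1 was the highest member in DMSO at 24 h, at 28.5 ± 1.48 (SD, n = 3), followed by CHEK1 at 16.2 ± 1.22 and CLSPN at 12.9 ± 1.15, whose libraries did not overlap with those of its neighbours in this order. TP53BP1, CHEK2 and MDC1 followed at 11.4 ± 0.429, 10.9 ± 0.839 and 10.7 ± 0.684, with overlapping libraries. WEE1, ATR and ATRIP were at 4.76 ± 0.467, 4.69 ± 0.293 and 4.34 ± 0.209, again overlapping. ATM was far below the rest, at 0.0399 ± 0.00649. Divided by the longest transcript instead, ATR moved from position 8 to position 4 and the 2 highest members and the 2 lowest kept their positions. At 72 h in DMSO the level of TOPBP1 was 14.6 ± 0.443, that of CHEK1 was 10.53 ± 0.275 and those of CHEK2, TP53BP1 and MDC1 were 9.25 ± 0.634, 8.90 ± 0.480 and 7.32 ± 0.384, where CHEK2 and TP53BP1 overlapped. ATR, CLSPN, WEE1 and ATRIP followed at 2.98 ± 0.143, 2.85 ± 0.302, 2.67 ± 0.163 and 2.31 ± 0.0831, and neighbours in this order overlapped except WEE1 and ATRIP. Between cisplatin and DMSO of the same time, only CHEK2 and TP53BP1 at 24 h and ATR and CLSPN at 72 h exchanged positions.

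ATM had the fewest exon counts of the members in every library. Its exon counts were 40, 38 and 34 in the DMSO libraries at 24 h, 27, 53 and 16 in cisplatin at 24 h, 24, 58 and 77 in DMSO at 72 h and 91, 135 and 84 in cisplatin at 72 h. Every other member had at least 307 exon counts in every library, so that exon values for ATM carry far more counting error than those of the rest. This did not hold for introns, where ATM had 34 to 157 counts per library against 22 to 239 for CLSPN and 24 to 90 for WEE1. ATM was also the only member with fewer exon than intron counts in all 12 libraries, at exon/intron ratios of 0.471 to 0.966. CHEK1 had the next lowest ratio, at 1.49 to 1.98, with 826 to 1898 intron counts per library, and the ratios of the other 8 members lay between 5.22 and 64.1. These ratios compare unequal lengths, CHEK1 overlaps STT3A on the same strand and ATM overlaps C11orf65 on the opposite strand. Whether the low exon counts of ATM reflect its expression or the counting was not tested.

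**Figure D1:**
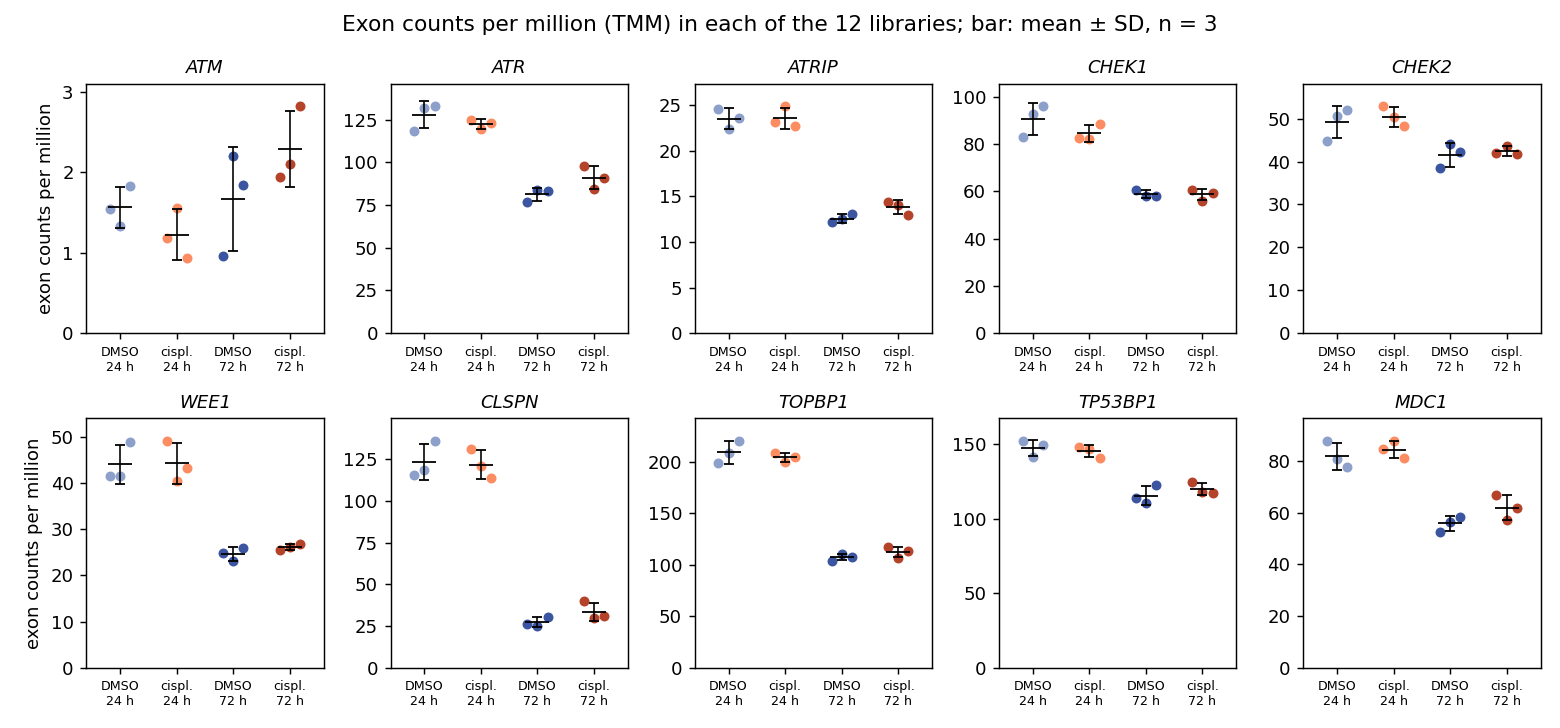
Exon CPM (y axis, from 0, scaled per gene) of the 10 checkpoint genes in DMSO and cisplatin at 24 and 72 h (x axis). Each point is 1 of 12 libraries and the bars give mean ± SD (n = 3). For all members except ATM, the 6 libraries at 72 h lie below the 6 libraries at 24 h, and the DMSO and cisplatin points of one time lie close together.

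The first comparison asked whether cisplatin changed the expression of the checkpoint genes at each time. At 24 h no member passed the test. The edgeR quasi-likelihood test on exon counts, adjusted by the Benjamini-Hochberg method over 10444 genes with a threshold of 0.05, called 0 members and 0% of all genes. At an unadjusted p under 0.05 the counts were 0 members and 260 genes, and DESeq2 also called 0 genes. The log2 fold changes of the members ran from -0.28 (ATM) to 0.04 (MDC1), with a median of -0.018 against -0.00047 over all genes. For the 9 members other than ATM, the 95% intervals lay between -0.23 and 0.19, and that of ATM ran from -0.90 to 0.35. None of the 10 members had all 3 cisplatin libraries on one side of the 3 DMSO libraries, which was the case for 6.42% of genes.

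At 72 h no member passed the test either, but CLSPN came nearest to it. CLSPN was measured at 26.2, 25.1 and 30.6 CPM in DMSO and at 39.9, 29.9 and 30.9 CPM in cisplatin. The groups overlapped, since the second cisplatin library lay below the highest DMSO library. The log2 fold change was 0.29 (SE 0.097, 95% interval 0.09 to 0.49) with an edgeR adjusted p of 0.243, and 0.29 with an adjusted p of 0.00856 when no filter on low counts was applied. Without the first cisplatin library, the highest of the 6, it was 0.14 with an adjusted p of 0.728, and over all alternatives the adjusted p ran from 0.00856 to 0.815. edgeR called 0 members and 3 genes, or 0.0287% of all genes, and the number of genes ran from 0 (without the third cisplatin library) to 72 (without the third DMSO library) when 1 library was left out. At an unadjusted p under 0.05 the counts were 3 members (CLSPN, ATR and MDC1) and 1311 genes, and DESeq2 called 91 genes and 0 members.

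ATR, the apex kinase of the replication stress response, was the only member whose libraries did not overlap between DMSO and cisplatin at 72 h, a pattern shown by 18.1% of genes. It was measured at 76.8, 84.0 and 83.1 CPM in DMSO and at 97.8, 84.6 and 90.6 CPM in cisplatin. The lowest cisplatin library lay just above the highest DMSO library, and the log2 fold change of 0.16 (SE 0.062) had an edgeR adjusted p of 0.295. MDC1, which binds phosphorylated H2AX, gave 0.15 (SE 0.067) with an adjusted p of 0.369. Without the first cisplatin library at 72 h, ATR gave 0.10 and MDC1 gave 0.082. The members' log2 fold changes ran from -0.0055 (CHEK1) to 0.41 (ATM, 95% interval -0.10 to 0.93), with a median of 0.108 against 0.00052 over all genes.

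The test of the difference between the cisplatin effects at 72 and 24 h called 0 members and 0% of genes with edgeR, and DESeq2 called 0 genes. At an unadjusted p under 0.05 the counts were 2 members and 985 genes. The 2 members were CLSPN, with a log2 difference of 0.31 (SE 0.132, edgeR adjusted p = 0.501), and ATR, with 0.22 (SE 0.088, adjusted p = 0.496). Without the first cisplatin library at 72 h the difference for CLSPN was 0.15.

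Intron counts, which come mainly from unspliced RNA, gave the same number of calls among the members. edgeR called 0 members at 24 h, where 2 of 9618 genes (0.0208%) passed, and 0 members at 72 h, where 4 genes (0.0416%) passed. The difference of the effects called 0 members and 4 genes (0.0416%). At an unadjusted p under 0.05 the counts were 1 member and 481 genes at 24 h (ATM, log2 fold change -0.45, SE 0.219, adjusted p = 0.942), 0 members and 621 genes at 72 h and 1 member and 549 genes for the difference (ATM, 0.61, SE 0.292, adjusted p = 0.856, and 0.39 without the first DMSO library at 72 h). DESeq2 called 0 genes at 24 h, 3 genes at 72 h and 0 genes for the difference, none of them a member. With 1 library left out, edgeR called 0 to 2 genes at 24 h, 3 to 9 at 72 h (most without the third DMSO library) and 0 to 7 for the difference.

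The ratio of exon to intron counts asks whether the balance of spliced and unspliced RNA shifted. With edgeR, where each library has its own term and the replicate spread enters the test, cisplatin changed the ratio of 0 members at 24 h (0% of 9393 genes) and 0 members at 72 h (2 genes, 0.0213%), and the difference of the effects gave 0 members (0% of genes). At an unadjusted p under 0.05 the counts were 1 member and 595 genes at 24 h (MDC1, log2 change of the ratio -0.44, SE 0.206, adjusted p = 0.786), 0 members and 586 genes at 72 h and 0 members and 428 genes for the difference. The logistic regression of the study's methods, which treats fragments as independent and so leaves out the replicate spread, called 0 members at 24 h, when it called 11.5% of 9678 genes, and 0 members at 72 h, when it called 11.4% of 10011 genes. At an unadjusted p under 0.05 it gave 3 members and 2392 genes at 24 h and 0 members and 2509 genes at 72 h. The 3 members had lower ratios, namely MDC1 (-0.45, SE 0.189), ATR (-0.25, SE 0.103) and CLSPN (-0.22, SE 0.096). Their adjusted p values in this regression were 0.107, 0.103 and 0.121. ATR and CLSPN each passed in 1 of the 6 fits that left out 1 library. The genes it called at 24 h fell from 1110 to 245 without the second cisplatin library and to 503 without the second DMSO library, and at most reached 1555 without the third cisplatin library, and at 72 h they fell from 1144 to 729 without the first DMSO library.

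**Figure D2:**
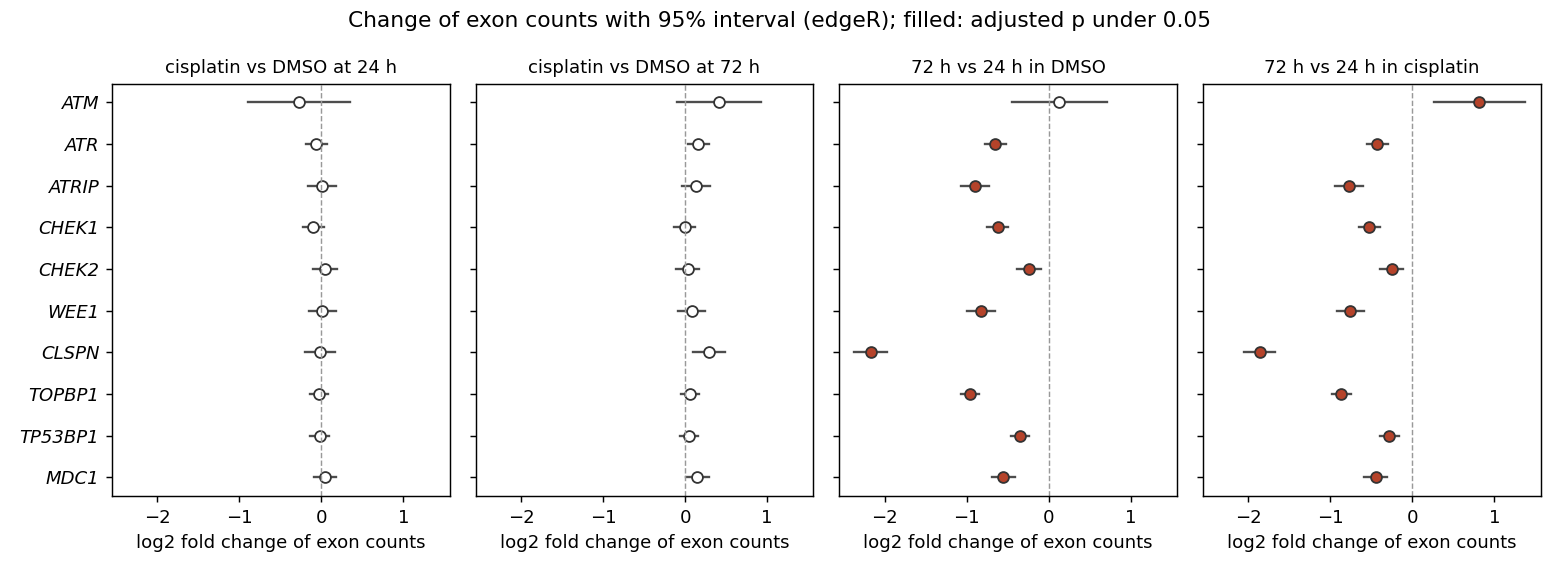
Log2 fold change of exon counts (x axis) of the 10 checkpoint genes (y axis) in the 4 comparisons, with 95% intervals from edgeR; filled points have an adjusted p under 0.05. All points are open for cisplatin against DMSO, while 9 of 10 are filled below 0 between 72 and 24 h in both arms.

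The comparison of 72 with 24 h in the same medium gave the large differences. In DMSO, exon counts of 9 of the 10 members were lower at 72 h, against 32.5% of all genes, and ATM did not pass. In cisplatin the same 9 members were lower, against 31.5% of all genes, and ATM was higher, against 32% of all genes. The median log2 fold change of the members was -0.636 in DMSO and -0.487 in cisplatin, against 0.015 and 0.017 over all genes. All 9 had every 72 h library below every 24 h library in both arms, as did 33.4% of genes in DMSO and 33.2% in cisplatin. In bulk samples fewer cells of a kind and less RNA per cell cannot be told apart.

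Among the mediators, CLSPN fell the most of all members. CLSPN was measured at 116, 119 and 136 CPM in DMSO at 24 h and at 26.2, 25.1 and 30.6 CPM at 72 h. In cisplatin it was measured at 131, 121 and 114 CPM at 24 h and at 39.9, 29.9 and 30.9 CPM at 72 h. The groups were far apart, with a 4.49-fold fall in DMSO (log2 fold change -2.17, SE 0.097, edgeR adjusted p = 3.32e-15) and a 3.64-fold fall in cisplatin (-1.86, SE 0.093, adjusted p = 3.24e-14). Its per-length level moved from position 3 among the members at 24 h to position 7 at 72 h in DMSO, or from position 5 to position 8 when divided by the longest transcript.

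TOPBP1, the activator of ATR, fell next. It was measured at 198, 209 and 220 CPM in DMSO at 24 h and at 104, 110 and 108 CPM at 72 h. In cisplatin the values were 209, 200 and 205 CPM at 24 h and 117, 107 and 113 CPM at 72 h. It remained the highest member per length in all 4 groups while it was lower by 1.95-fold in DMSO (log2 fold change -0.96, SE 0.054, adjusted p = 2.18e-13) and by 1.82-fold in cisplatin (-0.86, SE 0.054, adjusted p = 1.56e-12).

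The chromatin mediators fell less. MDC1 was measured at 87.6, 80.5 and 77.4 CPM in DMSO at 24 h and at 52.6, 56.3 and 58.4 CPM at 72 h, with log2 fold changes of -0.55 (SE 0.068) in DMSO and -0.45 (SE 0.0669) in cisplatin, where it ran from 80.9 to 87.6 CPM at 24 h and from 57.0 to 67.0 CPM at 72 h. TP53BP1, whose product blocks resection of broken ends, was measured at 152, 141 and 149 CPM in DMSO at 24 h and at 114, 110 and 122 CPM at 72 h, with log2 fold changes of -0.35 (SE 0.0545) and -0.28 (SE 0.0541). In cisplatin TP53BP1 ran from 141 to 148 CPM at 24 h and from 117 to 124 CPM at 72 h. For both genes the times did not overlap and the adjusted p was at most 9.31e-05 in either arm.

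ATRIP, the partner of ATR, was lower at 72 h in both arms. ATRIP was measured at 24.6, 22.4 and 23.7 CPM in DMSO at 24 h and at 12.2, 12.5 and 13.1 CPM at 72 h. In cisplatin the values were 23.1, 24.9 and 22.7 CPM at 24 h and 14.4, 14.1 and 12.9 CPM at 72 h. The log2 fold changes were -0.90 (SE 0.084, adjusted p = 1.50e-09) and -0.77 (SE 0.081, adjusted p = 1.35e-08), while the 2 genes were not compared with each other by a test.

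ATR was measured at 119, 132 and 133 CPM in DMSO at 24 h and at 76.8, 84.0 and 83.1 CPM at 72 h. In cisplatin the values were 125, 119 and 123 CPM at 24 h and 97.8, 84.6 and 90.6 CPM at 72 h. The times were apart in both arms, with log2 fold changes of -0.65 (SE 0.0625, adjusted p = 2.76e-09) and -0.43 (SE 0.0618, adjusted p = 1.92e-06).

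ATM was the exception among the members. It was measured at 1.53, 1.33 and 1.83 CPM in DMSO at 24 h and at 0.951, 2.20 and 1.84 CPM at 72 h, and these groups overlapped (log2 fold change 0.13, SE 0.280, adjusted p = 0.706). In cisplatin it was measured at 1.18, 1.55 and 0.934 CPM at 24 h and at 1.94, 2.11 and 2.82 CPM at 72 h, all 3 above the earlier libraries (0.82, SE 0.269, adjusted p = 0.0106). Without the third cisplatin library at 72 h the log2 fold change was 0.67 with an edgeR adjusted p of 0.0510, so that this call rested on that library. The difference between the arms was not called (0.69, SE 0.391, adjusted p = 0.579), and depth was greater at 72 h in cisplatin, whose part in this result was not tested.

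Among the effector kinases, WEE1 fell the most. WEE1 was measured at 41.6, 41.5 and 49.0 CPM in DMSO at 24 h and at 24.9, 23.1 and 26.0 CPM at 72 h, and at 49.1, 40.6 and 43.2 CPM in cisplatin at 24 h and 25.5, 26.2 and 26.8 CPM at 72 h. The log2 fold changes were -0.83 (SE 0.082, adjusted p = 4.61e-09) and -0.76 (SE 0.080, adjusted p = 1.61e-08). All 6 libraries at 72 h lay well below the 6 at 24 h.

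CHEK1, the kinase downstream of ATR, was measured at 83.0, 93.0 and 96.1 CPM in DMSO at 24 h and at 60.7, 58.0 and 58.1 CPM at 72 h, with log2 fold changes of -0.62 (SE 0.063) in DMSO and -0.53 (SE 0.0624) in cisplatin, where it ran from 82.4 to 88.8 CPM at 24 h and from 56.0 to 60.8 CPM at 72 h. CHEK2, the kinase downstream of ATM, changed least of the members that fell. It was measured at 44.9, 50.6 and 52.0 CPM in DMSO at 24 h and at 38.5, 44.03 and 42.3 CPM at 72 h, with log2 fold changes of -0.24 (SE 0.070, adjusted p = 0.00442) and -0.25 (SE 0.069, adjusted p = 0.00291). In cisplatin CHEK2 ran from 48.3 to 52.9 CPM at 24 h and from 41.7 to 43.7 CPM at 72 h. Its highest 72 h library in DMSO was close to its lowest 24 h library.

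**Figure D3:**
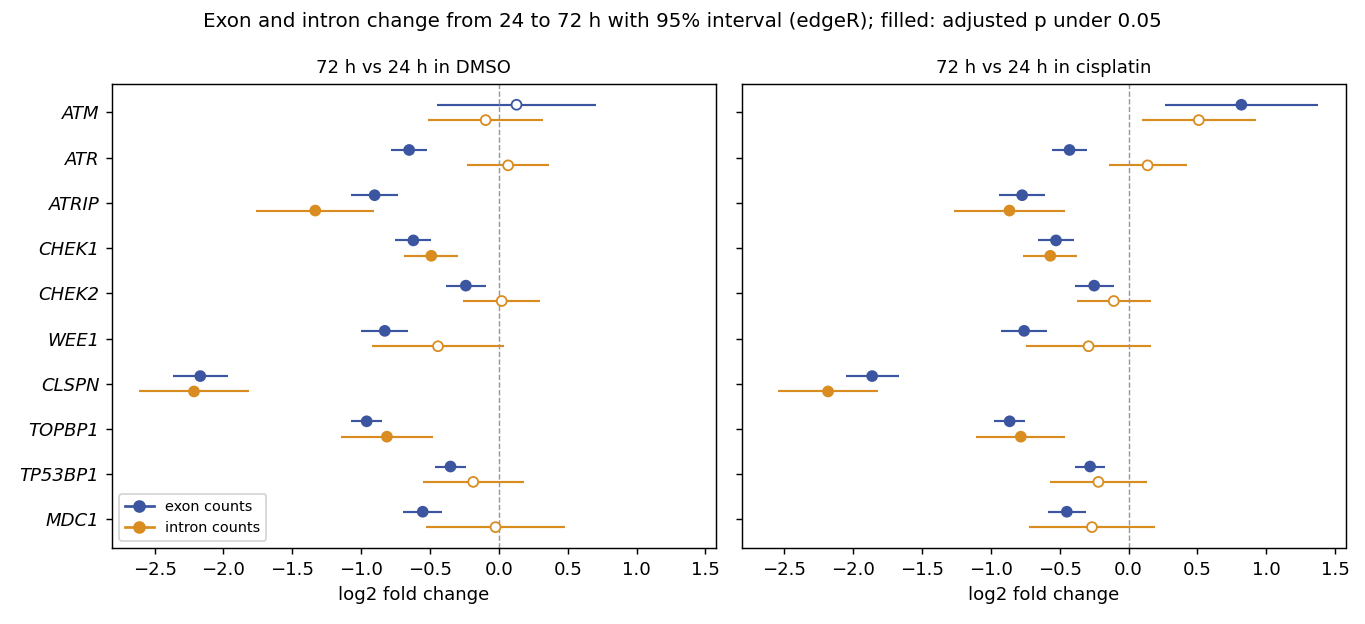
Log2 fold change from 24 to 72 h (x axis) of exon counts (blue) and intron counts (orange) for the 10 checkpoint genes (y axis), in DMSO and in cisplatin, with 95% intervals from edgeR; filled points have an adjusted p under 0.05. Exon and intron points are both filled and below 0 for CLSPN, TOPBP1, ATRIP and CHEK1. CLSPN in cisplatin lies at -1.86 for exons and -2.18 for introns. For ATR the exon point is filled below 0 and the intron point is open near 0 in both arms.

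Intron counts were far lower than exon counts for most members. Between 72 and 24 h, the edgeR test on intron counts called 4 members lower in DMSO, against 16.2% of 9618 genes, and the same 4 lower in cisplatin, against 15.4% of genes. These were CLSPN (log2 fold change -2.21, SE 0.198, in DMSO and -2.18, SE 0.181, in cisplatin), ATRIP (-1.33, SE 0.215, and -0.86, SE 0.20), TOPBP1 (-0.81, SE 0.168, and -0.78, SE 0.161) and CHEK1 (-0.49, SE 0.098, and -0.57, SE 0.097). The other 6 ran from -0.44 (WEE1) to 0.07 (ATR) in DMSO and from -0.29 (WEE1) to 0.51 (ATM) in cisplatin. CLSPN introns held only 22 to 47 counts per library in DMSO at 72 h, against 114 to 168 at 24 h. ATM introns in cisplatin gave an adjusted p of 0.0504 in the fit of 12 libraries and of 0.0412 in the fit of the 6 libraries compared, and in DMSO they gave -0.10 (SE 0.208).

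The exon/intron ratio of ATR fell with time in both arms. ATR had 25.3, 25.9 and 20.7 exon counts per intron count in DMSO at 24 h and 13.7, 15.8 and 16.2 at 72 h. In cisplatin it had 19.2, 22.4 and 18.7 at 24 h and 14.6, 14.2 and 13.8 at 72 h. The times did not overlap, and its intron counts did not pass the test in either arm (log2 fold change 0.07, SE 0.149, in DMSO and 0.14, SE 0.141, in cisplatin). The log2 change of the ratio was -0.65 (SE 0.147, edgeR adjusted p = 0.00414) in DMSO and -0.50 (SE 0.139, adjusted p = 0.0169) in cisplatin.

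ATR was the only member called by this test in either arm, among 3.37% of genes lower in DMSO and 3.57% lower in cisplatin. In cisplatin the call was lost without the second library at 24 h (-0.42, adjusted p = 0.0942), without the second library at 72 h (-0.50, adjusted p = 0.0616) or without the third library at 72 h (-0.49, adjusted p = 0.0540). Over all genes the median log2 change of the ratio was 0.100 in DMSO and 0.109 in cisplatin, and TMM scaling of all 24 columns moved these medians to -0.00204 and -0.00113 and the ATR values to -0.75 and -0.61. The median was 0.0597 in DMSO without the third library at 24 h and 0.0502 in cisplatin without the second library at 24 h. The 24-column scaling moved the share of lower genes among those called from 29.5% to 51.7% in DMSO and from 29.8% to 55.5% in cisplatin. With the scaling unchanged, that share was 39.2% in DMSO without the third library at 24 h and 42.7% in cisplatin without the second library at 24 h. The number of genes called lower was 317 in DMSO and 335 in cisplatin, and it ran from 197 to 277 and from 205 to 329 when 1 library was left out, lowest without the second DMSO library at 24 h and the second cisplatin library at 72 h.

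**Figure D4:**
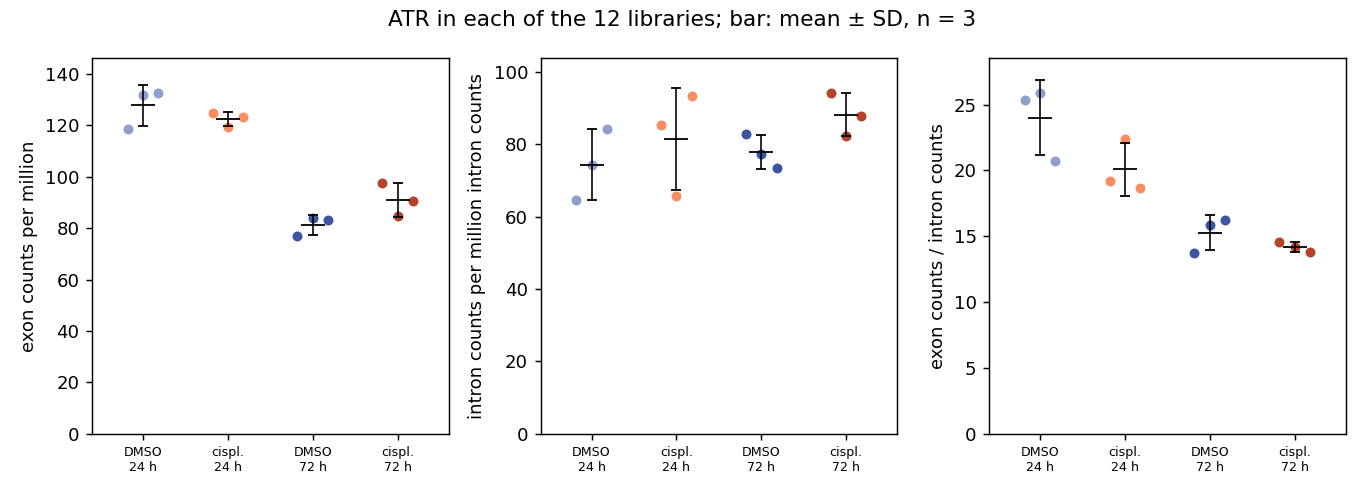
ATR exon CPM, intron CPM (TMM library sizes of the intron counts) and exon counts per intron count (y axes, from 0) in DMSO and cisplatin at 24 and 72 h. Each point is 1 of 12 libraries and the bars give mean ± SD (n = 3). Exon counts and the ratio are lower in all 6 libraries at 72 h, while intron counts overlap between the times.

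The logistic regression called 2 members between 72 and 24 h in each arm. In DMSO, where 33.7% of 9739 genes passed, these were ATR (log2 change of the ratio -0.65, SE 0.100) and ATRIP (0.49, SE 0.166). In cisplatin, where 40.6% of 9818 genes passed, they were ATR (-0.52, SE 0.086) and CLSPN (0.42, SE 0.122). With a dispersion for each gene estimated from the replicates, the same model called 0 members in either arm, and 64 and 97 genes. The ATRIP call was lost without the first library at 72 h (0.41) or the second (0.39) and the value was 0.74 without the third, and the CLSPN call was lost without the first cisplatin library at 72 h (0.29). The edgeR test gave 0.51 (SE 0.218, adjusted p = 0.138) for ATRIP in DMSO and 0.38 (SE 0.195, adjusted p = 0.206) for CLSPN in cisplatin.

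Genes that act with the members were described from 5 lists of pathway and cell cycle genes, of which 50 were tested. Between cisplatin and DMSO, edgeR called 0 of them at 24 h and 0 at 72 h. Their counts at an unadjusted p under 0.05 were 0 and 15, against 260 and 1311 of the 10444 genes tested. DESeq2 called 0 of the list genes at 24 h and 4 at 72 h, against 0 and 91 of 17085 genes. The 4 were the S phase genes MCM2, MCM4, CDT1 and RRM2, all higher in cisplatin.

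Of the damage and fork sensors, 10 of 13 tested genes were lower and 2 were higher at 72 h in each arm (median log2 fold change -0.234 in DMSO and -0.397 in cisplatin). The genes lower by the most were RPA1 and RPA2, subunits of the single-strand binding complex (-1.05 and -0.77 in DMSO, -0.98 and -0.87 in cisplatin), and TIMELESS and TIPIN, which ride with claspin on the fork (-0.97 and -0.91 in DMSO, -0.81 and -1.09 in cisplatin). RAD50 of the MRN complex and the clamp loader RAD17 were higher (0.34 and 0.26 in DMSO, 0.41 and 0.19 in cisplatin), but DESeq2 did not call RAD17 in cisplatin, where its edgeR adjusted p was 0.0453. The 9-1-1 clamp subunit RAD1 was lower (-0.45 and -0.58).

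Of the chromatin response factors, 5 of 6 were lower in each arm (medians -0.632 and -0.496), led by RIF1, the partner of 53BP1 (-0.94 and -0.60), BRCA1 (-0.79 and -0.77) and H2AX, the histone that MDC1 binds (-0.77 and -0.74), with the ubiquitin ligases RNF168 (-0.50 and -0.27) and RNF8 (-0.46 and -0.39) also lower. UIMC1 was higher in DMSO (0.18) and did not pass in cisplatin (0.11). Of the cell cycle targets of the checkpoint, 6 of 8 were lower in each arm (medians -0.764 and -0.804), namely the phosphatase CDC25A (-2.09 and -1.92), CDK1 (-1.04 and -1.08), CDK2 (-0.89 and -0.80), the kinase PKMYT1 (-0.83 and -0.86), CCNB1 (-0.70 and -0.81) and PLK1 (-0.55 and -0.48). CDC25B was higher in cisplatin (0.20) and gave 0.08 in DMSO without passing.

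Proliferation genes fell together with the members. All 13 tested S phase genes were lower in DMSO (median -1.33) and in cisplatin (median -1.14), with CCNE2 (-2.35 and -2.38), MCM4 (-2.10 and -1.83), RRM2 (-1.98 and -1.82), PCNA (-1.72 and -1.64) and CDC6 (-1.62 and -1.46) lower by the most. Their summed level was 3788 to 3837 CPM in DMSO at 24 h, 3768 to 3843 in cisplatin at 24 h, 1430 to 1464 in DMSO at 72 h and 1584 to 1620 in cisplatin at 72 h. All 10 G2/M genes were lower too (medians -0.870 and -0.781), led by MKI67 (-1.40 and -1.16), KIF11 (-1.19 and -1.04), CCNA2 (-1.06 and -0.97), TPX2 (-0.96 and -0.88) and TOP2A (-0.89 and -0.78). Their summed level was 2283 to 2506 CPM in DMSO at 24 h, 2292 to 2417 in cisplatin at 24 h, 1183 to 1288 in DMSO at 72 h and 1227 to 1418 in cisplatin at 72 h. Their part in the fall of the checkpoint genes was not tested. At 72 h the S phase list had a median log2 fold change of 0.184 between cisplatin and DMSO with 0 of 13 genes called by edgeR and the 4 named above called by DESeq2. Its largest values were those of CDT1 (0.29, SE 0.0695) and MCM4 (0.26, SE 0.0569), beside 0.29 for CLSPN.

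**Figure D5:**
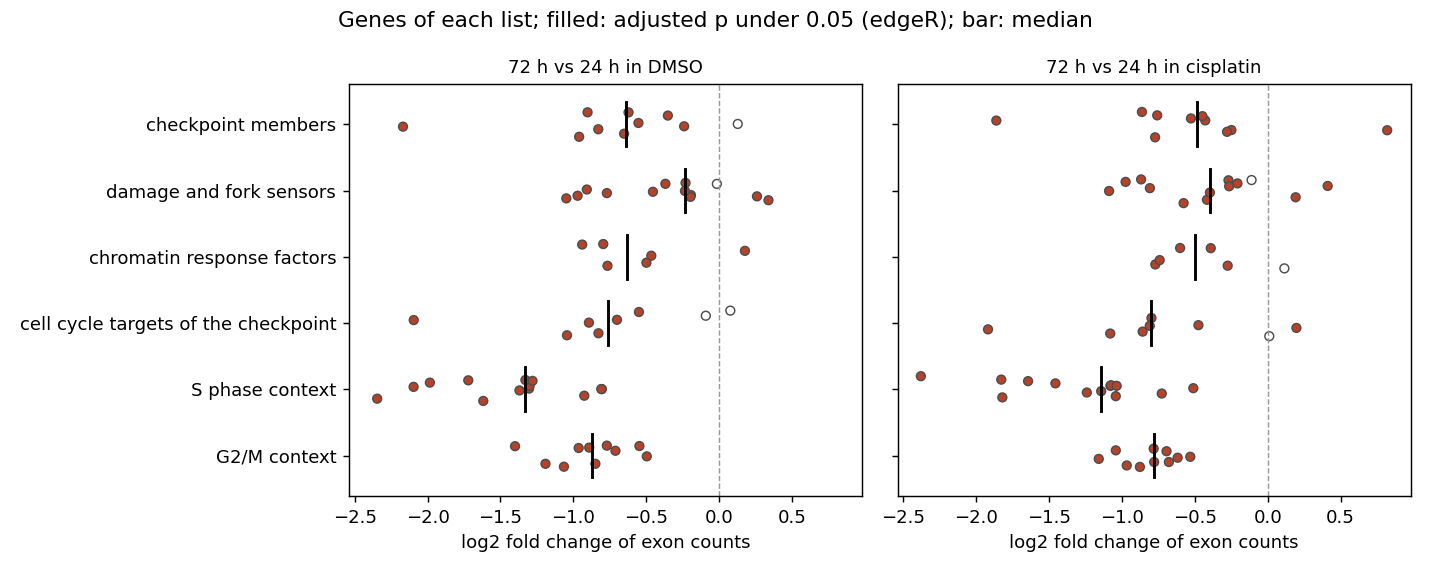
Log2 fold change of exon counts from 24 to 72 h (x axis) for the 10 checkpoint genes and the genes of 5 other lists (y axis) in DMSO and in cisplatin. Each point is 1 gene, filled where the edgeR adjusted p was under 0.05, and the bar is the median of the list. All S phase and G2/M genes lie below 0, and the median of the checkpoint genes is -0.636 in DMSO and -0.487 in cisplatin.

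Across the 12 libraries the members other than ATM varied together. Pearson's r of log2 CPM over the 36 pairs without ATM ran from 0.810 to 0.994 with a median of 0.955, and over the 9 pairs with ATM from -0.498 to -0.240. These values describe 12 points that share 4 group means and the same scaling. By the same measure, the 3 genes most like CLSPN were NUP205, TIMELESS and MLEC (r of 0.998, 0.998 and 0.997), and those most like TOPBP1 were CSE1L, ANLN and PPP4R1 (0.999, 0.999 and 0.998). ATR was most like TNPO1, NT5DC3 and TPR (0.994, 0.992 and 0.991), and ATRIP was most like NES, ACLY and COLGALT1 (each 0.996). WEE1 was most like SFPQ, TRAK2 and HEATR3 (0.993, 0.992 and 0.991), CHEK1 was most like YWHAZ, CDC42SE2 and SLC25A24 (0.993, 0.991 and 0.990), and CHEK2 was most like CCDC15, PRDX6 and PMP22 (0.957, 0.950 and 0.943). MDC1 was most like CDK5RAP2, SPTAN1 and PRPF8 (0.986, 0.986 and 0.984), TP53BP1 was most like MCM3AP, CHD4 and MKI67 (0.987, 0.986 and 0.985), and ATM was most like FAM135A, KDR and EGFR (0.972, 0.885 and 0.875).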

How the data were processed

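TYK-nu cells had been cultured in DMSO or in cisplatin at 15 μM, and RNA of triplicates was sequenced after 24 and 72 h. Per the study's methods and the submitters' processing notes, the authors trimmed reads with Trim Galore 0.6.0 after FastQC 0.11.8, aligned them to GRCh38 with HISAT2 2.1.0 and counted fragments with HTSeq-count over separate exon (intersection-strict) and intron (union) annotations from Ensembl release 98. The deposited values are whole-number counts per gene and library, not normalized or pooled. The strand option of the counting and a filter on low counts are not given in the sources used here, so overlapping, antisense and near-identical genes are uncertain. Gene symbols were matched for 17485 of 17508 genes.

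Exon and intron counts were tested with edgeR 4.0.16 (glmQLFit and glmQLFTest, filterByExpr, TMM) in R 4.3.3 in one fit of 12 libraries. The exon/intron ratio was tested with a term per library for genes that reached 10 counts in both exons and introns in 3 or more libraries, and by logistic regression (Wald test) for genes whose exons and introns were both above 0 in all 6 libraries compared. P-values were adjusted by Benjamini-Hochberg over all genes tested, with a threshold of 0.05. CPM used TMM library sizes. Similar genes were sought among genes with a mean of at least 50 exon counts, on log2 CPM with a prior count of 2. The fits were tested on simulated data. Python 3.11.15, numpy 2.4.6, scipy 1.17.1, pandas 2.3.3 and matplotlib 3.10.9 did the rest. Alternatives covered DESeq2 1.42.0, normalization, filters, dispersion, the replicate block, the libraries fitted and each library left out. All 10 members were tested in every comparison, but not every member was named in each. Of the other lists, up to 5 passing genes were named by largest absolute change, some further genes were named after their values were seen, and for each member called in an exon comparison the 3 most similar genes were named. The members and lists were chosen with earlier results of these data known. One further list of pathway genes is not reported here.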

Additional observations from a re-analysis of the deposited data

How the results depend on the processing

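The deviations of same-numbered libraries from their group means correlated at -0.108 to 0.102. Such values cannot exclude a shared passage or day, and the meaning of a shared replicate number is not stated, so whether the libraries were paired is unknown. With the replicate block, edgeR called 9 and 10 members in exon counts with time in DMSO and cisplatin, 4 and 4 in intron counts, 1 and 1 in the ratio, and 0 in every cisplatin comparison, as without it, and the logistic regression called 2 and 2 with time. Of 190 member values, 68 changed sign under at least 1 of the alternatives, but 0 of these 138 changes concerned a value that passed or came to pass. Without the filter on low counts, 1 member (CLSPN) passed in exon counts between cisplatin and DMSO at 72 h. The quasi-binomial model called 0 members with time in DMSO and 0 in cisplatin. With library sizes of the exon counts, the log2 change of ATR introns in DMSO was -0.0059, and the share of lower genes among called introns in cisplatin moved from 48.4% to 59.6%. Over the fits without 1 library each, ATM with time in DMSO ran from -0.078 to 0.38 in exon and from -0.23 to 0.12 in intron counts, ATR introns from -0.027 to 0.16 in DMSO and from -0.015 to 0.24 in cisplatin, and the logistic ratio of CHEK1 in cisplatin from -0.037 to 0.20. The members called ran from 0 to 1 for the edgeR ratio with time in cisplatin, beside 638 of 9276 to 1123 of 9392 genes. For the logistic regression they ran from 0 to 2 for cisplatin at 24 h, beside 245 of 9690 to 1555 of 9774 genes. With time they ran from 1 to 4 in either arm. The genes called with time ran from 2822 of 9751 to 3049 of 9804 in DMSO. In cisplatin the genes called ran from 2965 of 9840 to 3890 of 9982. Divided by the longest transcript, levels in DMSO at 24 h were 0.119 (ATM), 15.7 (ATR), 5.15 (ATRIP), 22.0 (CHEK1), 19.2 (CHEK2), 8.49 (WEE1), 14.5 (CLSPN), 34.0 (TOPBP1), 14.2 (TP53BP1) and 11.7 (MDC1). The cause of these differences was not tested. The number of genes called between cisplatin and DMSO depended on the setting, with 0 against 7 genes without the filter in exon counts at 24 h, 3 against 154 without the filter and 91 by DESeq2 at 72 h, and 0 against 20 without the filter for the difference. In intron counts, 2 against 5 genes passed without the filter and 0 by DESeq2, with the block or with exon library sizes at 24 h, 4 against 19 without the filter and 26 in the fit of 6 libraries at 72 h, and 4 against 11 without the filter and 0 by DESeq2, with the block or with exon library sizes for the difference. With the count minimum of the edgeR ratio lowered to 1, 0 against 2 genes passed at 24 h, 2 against 13 at 72 h and 0 against 6 for the difference. The quasi-binomial model gave 0 genes against 1110 at 24 h and 0 against 1144 at 72 h, and with time 64 against 3278 in DMSO and 97 against 3984 in cisplatin. ATM had the fewest exon counts of the members, at 16 to 135 per library.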
